A study of Ictidomys tridecemlineatus with 15 samples.

Results

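Early-stage primary retinal progenitor cells (early RPCs) of the 13-lined ground squirrel (13LGS, Ictidomys tridecemlineatus) were compared between 2 windows of embryonic life, E24-E26 and E18-E21. The members were all cells that the authors' deposited annotation calls early RPCs in the 7 embryonic libraries, 8841 of 19630 cells in those libraries and of 53394 cells in the whole series. The earlier window held 5410 early RPCs in 3 libraries, with 3892 from E18, 870 from E21a and 648 from E21b. The later window held 3431 early RPCs in 4 libraries, with 1129 from E24a, 619 from E24b, 1018 from E26a and 665 from E26b. A further 60 early RPCs came from postnatal libraries and are not part of the comparison.

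Early RPCs are the dividing cells of the young retina, each able to renew itself or to give rise to neurons. In mice they first yield ganglion cells, horizontal cells and cones. Over time they change their gene expression and pass into a late state that yields rods, bipolar cells and Müller glia. For the ground squirrel, the authors report that the late state goes on yielding cones as well. They detected rods there only late after birth. Neurogenic progenitors are the cells derived from early RPCs that are about to leave the cell cycle. The comparison asks how far this population changed its own expression while it still carried the early annotation.

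The series is single-cell RNA sequencing of whole retinas, with 10x Chromium 3′ libraries. Each mRNA molecule is tagged by a unique molecular identifier (UMI) before amplification, and 1 count stands for 1 such molecule. Embryos came from timed-pregnant captive dams, and the labels give no strain, genotype or treatment that would separate the libraries, so age is the labelled difference between them. Retinas were either methanol-fixed or flash-frozen. Which libraries were which, and how many animals each held, was not given in the sources used here. All p-values therefore measure the spread between these libraries. The letters a and b only name the libraries of a time point. E18 had 1 library, so the earlier window rested on 3 libraries of 2 ages.

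The deposited gene list held 30265 names and the count matrix 34181 rows, with no key between them. Genes are therefore given by their row in the matrix, counted from 1, and the markers of progenitors and of other retinal cells could not be looked up by name. Whether the annotation lines up with the matrix columns was checked on the counts. The annotation came from clusters of these same counts, which favours agreement, so the check does not stand in for markers. A profile of each of 5 embryonic types was made from part of the cells, and 4126 of 4424 held-out early RPCs (93.3%) lay nearest the early RPC profile. A further 206 (4.66%) lay nearest the early neurogenic profile, 92 (2.08%) nearest photoreceptor precursors, and 0 nearest ganglion or horizontal cells.

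Summed over early RPCs, the libraries held from 7427493 UMIs in E26a to 37304721 UMIs in E18. Libraries of the same time point were not copies of each other, with a chi-square per degree of freedom of 8.28 to 14.8 in the 3 pairs. That measure treats UMIs as independent, which UMIs of the same cell are not. It cannot show whether the libraries of a pair came from different animals. Each was counted as a separate sample. Cell barcodes shared with another of the 7 libraries were found for 113 cells, of which 50 were early RPCs. Cells with over 2 times the median UMI count of their library and type made up 13.3% of the early RPCs (1175 cells).

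The share of a library annotated as early RPCs was 70.5% at E18 (95% Wilson interval 69.3 to 71.7), 47.3% in E21a (44.98 to 49.5) and 41.4% in E21b (38.96 to 43.8). At the later ages it was 40.8% in E24a (38.999 to 42.7), 32.7% in E24b (30.6 to 34.8), 26.1% in E26a (24.8 to 27.5) and 30.96% in E26b (29.04 to 32.9). Every later library lay below every earlier one, but E24a and E21b had intervals that overlapped. The mean was 53.0% ± 15.4 (SD, n = 3) in the earlier window and 32.7% ± 6.11 (SD, n = 4) in the later one, a difference of -20.4 percentage points. The exact two-sided permutation p was 0.0571, the smallest that 4 against 3 libraries allows, and 0.171 after Benjamini-Hochberg adjustment over the 3 library measures tested. With the cells of very high UMI count left out the windows overlapped, at 38.3% in E21b and 38.8% in E24a (exact permutation p = 0.114).

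Horizontal cells, the interneurons that link photoreceptors laterally, made up 0.453%, 7.17% and 10.1% of E18, E21a and E21b, and 15.4%, 14.5%, 21.01% and 21.8% of E24a, E24b, E26a and E26b. Photoreceptor precursors made up 0%, 0.978% and 1.40% of the earlier libraries and 9.69%, 3.65%, 6.42% and 9.22% of the later ones. Both types were higher in every later library, while ganglion cells (20.3% to 41.3%) and early neurogenic progenitors (5.77% to 10.9%) overlapped between windows. Primary progenitors with the late-stage annotation, which are not members, numbered 1 in E21a and 42 in E26a and 0 in the other 5 libraries. Late-stage neurogenic progenitors numbered 2 in E18, 6 in E21a, 2 in E24b and 37 in E26a.

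**Figure D1:**
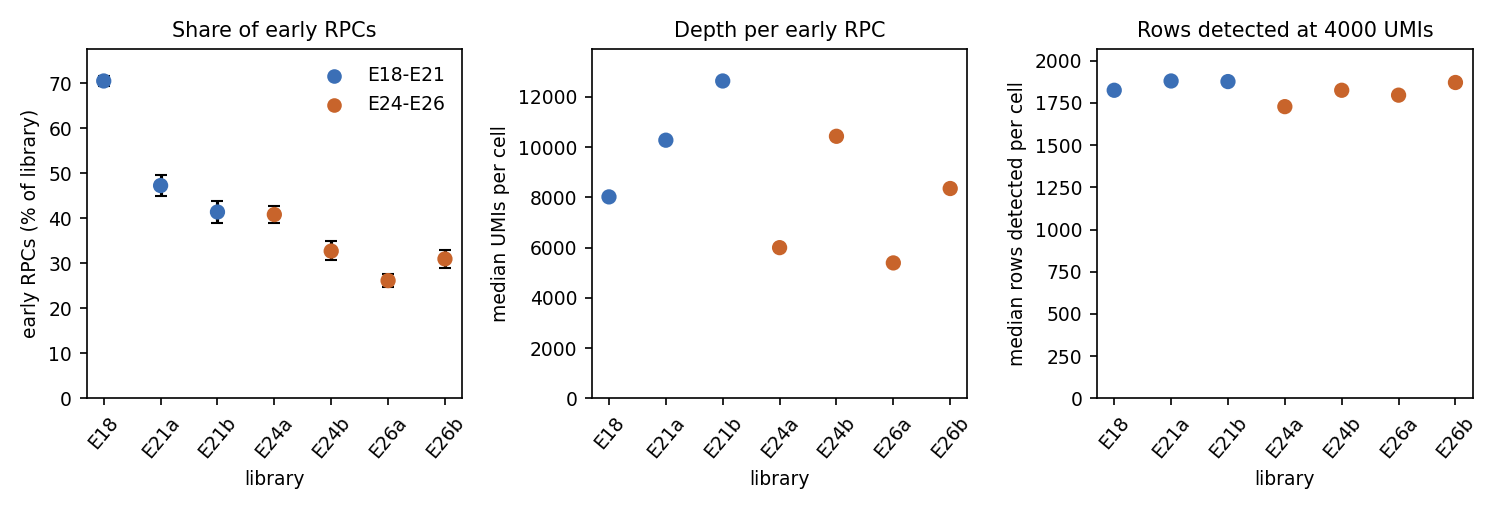
Early RPCs by library, with points coloured by window: the share of the library's cells in percent with 95% Wilson bars (left), the median UMIs per cell (middle), and the median number of matrix rows detected per cell after thinning to 4000 UMIs (right). The share went from 70.5% at E18 to 26.1% in E26a, while the other 2 measures overlapped between windows.

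Depth per cell did not separate the windows. The median early RPC had 8019.5 UMIs at E18, 10276.5 in E21a and 12634 in E21b, against 5999 in E24a, 10432 in E24b, 5390.5 in E26a and 8353 in E26b. The means of these medians were 10310 ± 2307 (SD, n = 3) and 7544 ± 2311 (SD, n = 4; exact permutation p = 0.286, adjusted 0.286).

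The number of different rows seen in a cell was compared after each cell was thinned to 4000 UMIs, which left out 822 shallower early RPCs. It was 1825 at E18, 1880 in E21a and 1876.5 in E21b, and 1728, 1825, 1796 and 1871 in E24a, E24b, E26a and E26b. The windows overlapped, at 1860.5 ± 30.8 (SD, n = 3) and 1805 ± 59.9 (SD, n = 4; exact permutation p = 0.171, adjusted 0.257). Without thinning the values followed depth, from 2194 rows in E26a to 3978.5 in E21b.

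The most abundant single row of a library took 2.48%, 3.44% and 4.06% of the early RPC UMIs at E18, E21a and E21b, and 4.88%, 4.65%, 4.82% and 5.38% in E24a, E24b, E26a and E26b. It was higher in every later library (exact permutation p = 0.0571, the smallest possible). The 50 most abundant rows together took 24.99% to 28.1% and overlapped between windows.

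For expression, UMIs were summed over the early RPCs of each library, and the 7 sums were compared with edgeR's quasi-likelihood test. Rows with a p below 0.05 after Benjamini-Hochberg adjustment are named called. Levels are given as UMIs per 1000000 UMIs (CPM) of the tested rows, after the sums were scaled by edgeR's TMM factors. For early RPCs these factors ran from 0.900 in E24a to 1.06 in E21b. Pooled levels and levels in late RPCs are per 1000000 UMIs of the whole, unscaled sum. CPM are not corrected for transcript length. Of 15334 rows tested, 1148 were called (7.49%), of which 640 were higher at E24-E26 (4.17%) and 508 lower (3.31%). The median log2 change of all tested rows was -0.01, which the scaling of the sums sets near 0. With no filter on low counts 981 rows were higher and 1031 lower, so the excess of rises did not hold there, nor in the rows at least as abundant in early RPCs as in other cells described below. At an unadjusted p below 0.05 there were 3684 rows, and 3364 rows (21.9% of those tested) had CPM values that did not overlap between windows.

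Most of the called changes were moderate in size. Of the 640 rows that rose, 479 changed at least 1.5-fold, 281 at least 2-fold, 106 at least 4-fold and 43 at least 8-fold, with a median log2 change of 0.89. Of the 508 that fell, 435, 263, 84 and 25 passed the same sizes, with a median size of 1.02 on the log2 scale. Over all 15334 tested rows the median size was 0.22, and 897 changed at least 2-fold.

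The count of calls depended on which libraries entered. It was 586 without E18, 614 without E21a, 499 without E24a, 435 without E26b and 322 without E26a, and it was 1995 without E21b. Without E24b it was 975, and 291 rows (174 higher, 117 lower, 25.3% of the 1148) were called in all 7 of these fits as well. Among the called rows that could still be tested, every one kept its direction in each of the 7 fits. Without the cells of very high UMI count 719 rows were called, of which 668 were among the 1148.

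**Figure D2:**
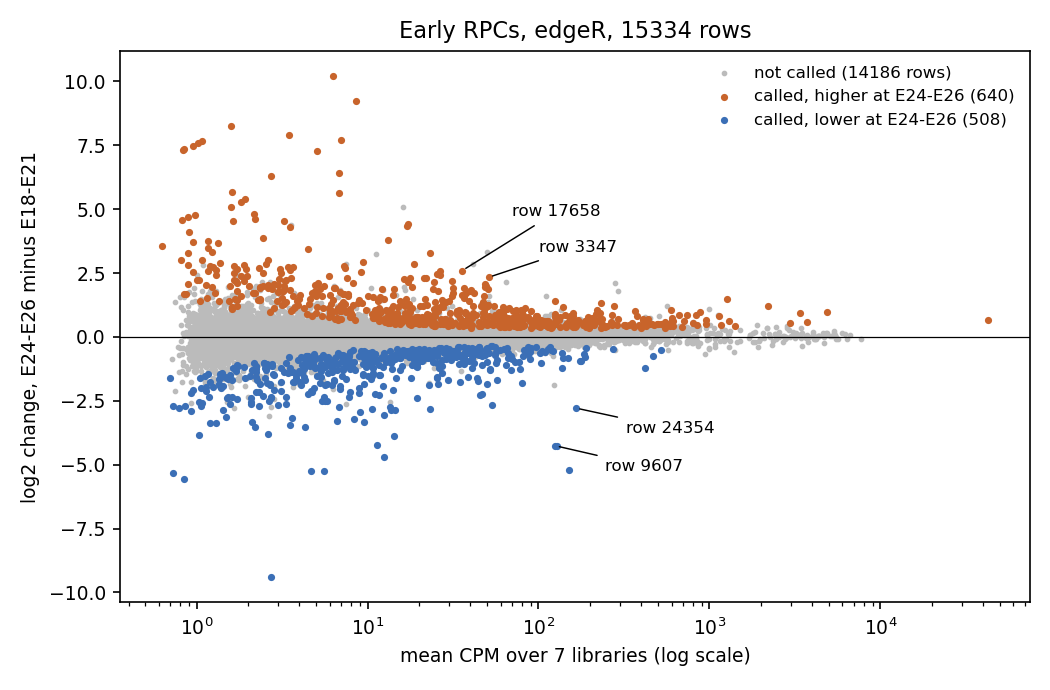
Change of each of the 15334 tested rows in early RPCs, as log2 of E24-E26 over E18-E21 (vertical axis), against its mean level in CPM over the 7 libraries (horizontal axis, log scale). The 640 called rows that rose and the 508 that fell are coloured, and the 4 named rows are marked, 2 in each direction.

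By abundance, the calls were spread unevenly. Among the 1528 rows above 100 CPM, 140 rose and 25 fell (10.8% called in all). Between 10 and 100 CPM, 301 rose and 245 fell of 7119 rows (7.67%), and between 1 and 10 CPM, 183 rose and 229 fell of 6537 rows (6.30%). Under 1 CPM only 150 rows were testable, of which 16 rose and 9 fell (16.7%), and a row could pass the filter there through the window in which it was high. The bands were read off the same sums as the calls and carry no test of their own.

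A small set of rows went from no UMI to many. There were 7 tested rows without a single UMI among the 61626753 UMIs of the early RPCs of E18-E21, and all 7 were called. Each had UMIs in all 4 later libraries, 47 to 347 in total, or 1.41 to 10.4 CPM pooled. Against the level that 3 UMIs would give in the earlier window (0.0487 CPM), these are at least 28.9-fold to at least 214-fold higher. Such rows had to differ to pass the filter, and all 7 were more abundant in the other cells of E24-E26 than in its early RPCs. In the opposite direction, 1 tested row had no UMI among the 33383721 UMIs of the later early RPCs, and it was called.

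How specific the changed rows were to progenitors was read from the pooled level in early RPCs against all other cells of the same libraries, in the window where the row was higher. Of the 508 rows that fell, 224 (44.1%) were at least 2 times as abundant in early RPCs as in other cells, and 45 (8.86%) were at most 0.5 times as abundant. Of the 640 that rose, 185 (28.9%) were at least 2 times as abundant and 151 (23.6%) at most 0.5 times. Over all tested rows these shares were 16.9% and 13.1% for rows that were higher late, and 15.9% and 8.30% for rows that were higher early. E18 gave 37304721 of the 61626753 early RPC UMIs pooled in the earlier window. Ganglion cells, the largest other class, were more even, at 9005696 UMIs in E18, 7181360 in E21a and 8757525 in E21b. A fall from E18 to E21 in every class therefore raises the pooled ratio, which mixes age with class.

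For the 151 rising rows with a higher level in the other cells, those cells were pooled over all classes, and no relation to the share of any class was tested. In droplet libraries free RNA of other cells also gives UMIs, and its part in these rows was not tested. Restricted to rows at least as abundant in early RPCs as in other cells, a choice made after the data were seen, 640 rows were called, 313 higher and 327 lower.

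To name single rows, called rows were required to reach a mean of 50 CPM in the higher window, not to overlap between windows, and to be at least 1.5 times as abundant in early RPCs as in other cells. The first condition left 250 rising and 89 falling rows and all of them together left 102 and 52. The 102 rising rows had log2 changes of 0.35 to 2.60 with a median of 0.70, and 22 of them changed at least 2-fold. The 52 falling rows had changes from -4.26 to -0.36 with a median of -0.93, and 24 changed at least 2-fold. The first 2 by size in each direction are described.

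Row 17658 rose most of the 102. Its level in early RPCs was 5.75 CPM at E18, 11.5 in E21a and 11.0 in E21b, and 36.4 in E24a, 31.6 in E24b, 89.3 in E26a and 65.3 in E26b. The windows did not overlap, both E26 libraries exceeded both E24 libraries, and the 2 E21 libraries were close to each other. The mean was 9.42 ± 3.19 CPM (SD, n = 3) against 55.6 ± 26.9 CPM (SD, n = 4), a log2 change of 2.60 (SE 0.39, 95% interval 1.74 to 3.46, edgeR adjusted p = 0.00652).

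The same row also rose in early neurogenic progenitors and in ganglion cells. Its own change was 2.21 in early neurogenic progenitors (SE 0.47, edgeR adjusted p = 0.0186) and 2.45 in ganglion cells (SE 0.27, edgeR adjusted p = 0.000837). The change in early RPCs exceeded that in these classes by 0.48 (SE 0.29, edgeR adjusted p = 0.441) and 0.05 (SE 0.26, edgeR adjusted p = 0.929), which was not past the threshold. In horizontal cells it stood at 7.74, 10.3 and 12.5 CPM early and at 4.17, 5.46, 7.23 and 3.56 CPM late, on 1 to 21 UMIs per library. That change of -1.11 was not called (SE 0.41, edgeR adjusted p = 0.138), and it differed from that in early RPCs by 3.57 (SE 0.47, edgeR adjusted p = 3.38e-08).

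Row 3347 was the other riser. It stood at 4.10 CPM at E18, 19.3 in E21a and 24.4 in E21b, and at 69.2, 50.7, 97.8 and 92.1 CPM in E24a, E24b, E26a and E26b. The windows did not overlap, and E18 lay well below both E21 libraries. The windows averaged 15.9 ± 10.5 (SD, n = 3) and 77.4 ± 21.7 CPM (SD, n = 4), a log2 change of 2.33 (SE 0.49, 95% interval 1.25 to 3.42, edgeR adjusted p = 0.0210). Its adjusted p was 0.0512 without E24a, 0.0705 without E26a and 0.0615 without E26b, and it stayed below 0.05 in the other 4 fits without 1 library.

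Row 3347 went down in ganglion cells, where row 17658 went up. In ganglion cells it went from 29.1, 25.99 and 21.6 CPM to 14.7, 17.1, 15.2 and 13.6 CPM, a log2 change of -0.75 (SE 0.14, edgeR adjusted p = 0.00588). The difference of the change between early RPCs and ganglion cells was 3.26 (SE 0.54, edgeR adjusted p = 0.00195). In early neurogenic progenitors it began higher than in early RPCs, at 23.5, 48.9 and 50.2 CPM, and ended at a like level of 78.4, 50.4, 74.8 and 76.0 CPM. There the change of 0.80 was not called (SE 0.25, edgeR adjusted p = 0.0872), and the change in early RPCs was larger by 1.70 (SE 0.24, edgeR adjusted p = 0.000182).

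Row 9607 fell most of the 52. Its level was 641 CPM at E18, 111 in E21a and 68.7 in E21b, and then 11.9 in E24a, 21.8 in E24b, 11.9 in E26a and 11.5 in E26b. E18 stood far above the next library, and E24a, E26a and E26b lay close together under E24b. The windows averaged 274 ± 319 (SD, n = 3) and 14.3 ± 5.04 CPM (SD, n = 4), a log2 change of -4.26 (SE 0.68, 95% interval -5.77 to -2.75, edgeR adjusted p = 0.00889). Without E18 the change was -2.65 and still past the threshold.

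On UMIs pooled over the earlier window, row 9607 was 22.8 times as abundant in early RPCs as in all other cells. E18, where the row was highest, weighs more among the pooled early RPCs than among the other cells. The ratio thus mixes age with class. In early neurogenic progenitors the row stood at 58.9, 28.1 and 15.8 CPM early and 3.65, 14.0, 8.40 and 7.27 CPM late. Its log2 change there was -2.06 (SE 0.42, edgeR adjusted p = 0.0150). In ganglion cells it went from 33.2, 6.09 and 4.26 CPM to between 0.996 and 1.60 CPM, a log2 change of -3.55 (SE 0.67, edgeR adjusted p = 0.00620). The fall in early RPCs was the larger one against neurogenic progenitors (difference -2.01, SE 0.36, edgeR adjusted p = 0.00192) and against ganglion cells (-0.67, SE 0.19, edgeR adjusted p = 0.0299), each tested within the same libraries.

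Row 24354 fell over every age. It stood at 547 CPM at E18, 274 in E21a, 148 in E21b, 64.7 in E24a, 73.6 in E24b, 23.5 in E26a and 25.5 in E26b. No library of an older time point reached any library of a younger one. Early and late means were 323 ± 204 (SD, n = 3) and 46.8 ± 26.1 CPM (SD, n = 4), a log2 change of -2.78 (SE 0.48, 95% interval -3.85 to -1.72, edgeR adjusted p = 0.0109). Without E18 the change was -2.17 and still past the threshold.

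The same row also fell in early neurogenic progenitors, by -1.41 (SE 0.33, edgeR adjusted p = 0.0299). In ganglion cells its log2 change was -0.80 (SE 0.16, edgeR adjusted p = 0.00851). In horizontal cells the row went the other way. It stood there at 61.9, 83.9 and 56.0 CPM early and at 201, 134, 189 and 190 CPM late, a log2 change of 1.40 (SE 0.20, edgeR adjusted p = 0.000324). The difference between the change in early RPCs and in horizontal cells was -3.81 (SE 0.25, edgeR adjusted p = 3.65e-20). By E26 its level in early RPCs (23.5 and 25.5 CPM) was near that in ganglion cells (24.1 and 29.3 CPM), while at E18 it had been 547 against 59.9 CPM.

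**Figure D3:**
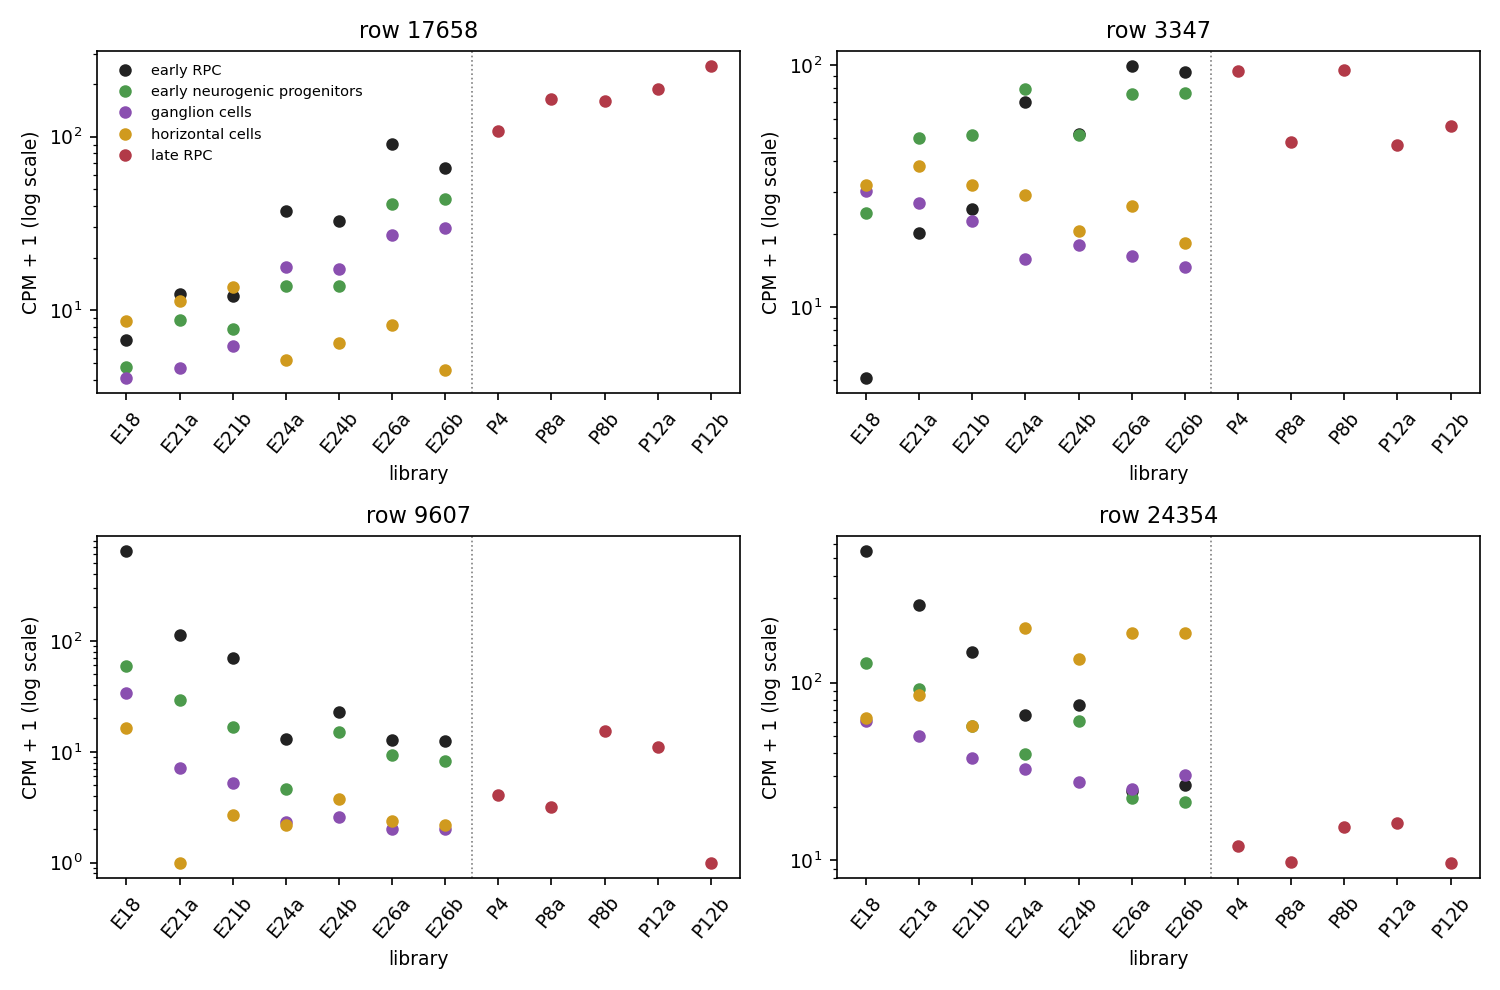
Level of the 4 named rows in each library, as CPM + 1 on a log axis, with 1 point per library and annotated class and the postnatal late RPCs to the right of the dotted line. Early RPCs rise from 5.75 to 65.3 and 89.3 CPM for row 17658 and fall from 641 to 11.5 CPM for row 9607, while row 24354 rises in horizontal cells.

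The 4 ages were then taken one step at a time, in a fit of 4 time point means in which the single E18 library was assumed to vary like the others. From E18 to E21, 194 rows were called (1.27% of 15334), 147 higher (0.959%) and 47 lower (0.307%). From E21 to E24, 182 rows were called (1.19%), 115 higher (0.75%) and 67 lower (0.437%). From E24 to E26, 2 rows were called (0.013%), both lower, with 933 rows at an unadjusted p below 0.05. The direction of those few calls rested on single libraries, since without E26a 3 rows were called, all higher, and without E26b 1 row, also higher. The E21 to E24 count fell to 46 without E24a, the E18 to E21 count was 567 without E21a, and the E24 to E26 count was 13 at most in the fits that left out 1 library.

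The 1148 called rows were followed over the same steps as a description, since the 4 ages are those of the call itself. Of the 640 rising rows, 425 (66.4%) went up at each of the 3 steps, against 23.8% of all tested rows with a positive change. The largest of the 3 steps was E21 to E24 for 488 of them (76.3%), E18 to E21 for 134 and E24 to E26 for 18, and the median log2 steps in time order were 0.33, 0.68 and 0.17. Of the 508 falling rows, 319 (62.8%) went down at each step, against 25.3% of all tested rows with a negative change. Their largest step was E21 to E24 for 396 (78.0%), and the median steps were -0.31, -0.78 and -0.20. The step from E21 to E24 is the one that the windows straddle, and it was also the largest for 45.6% and 47.9% of all tested rows with a positive and a negative change.

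The largest step was not the same in the named rows. Row 17658 changed by 0.97, 1.59 and 1.18 in log2 at the 3 steps, of which the step from E21 to E24 was called (SE 0.18, edgeR adjusted p = 0.00333). Row 3347 changed by 2.41, 1.46 and 0.66, with the first called (SE 0.25, edgeR adjusted p = 0.00186) and also the next (SE 0.18, edgeR adjusted p = 0.00432). Row 9607 changed by -2.84, -2.41 and -0.54, and row 24354 by -1.38, -1.61 and -1.50. The first 2 steps of both falling rows were called, and the step from E24 to E26 was called for none of the 4 rows.

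**Figure D4:**
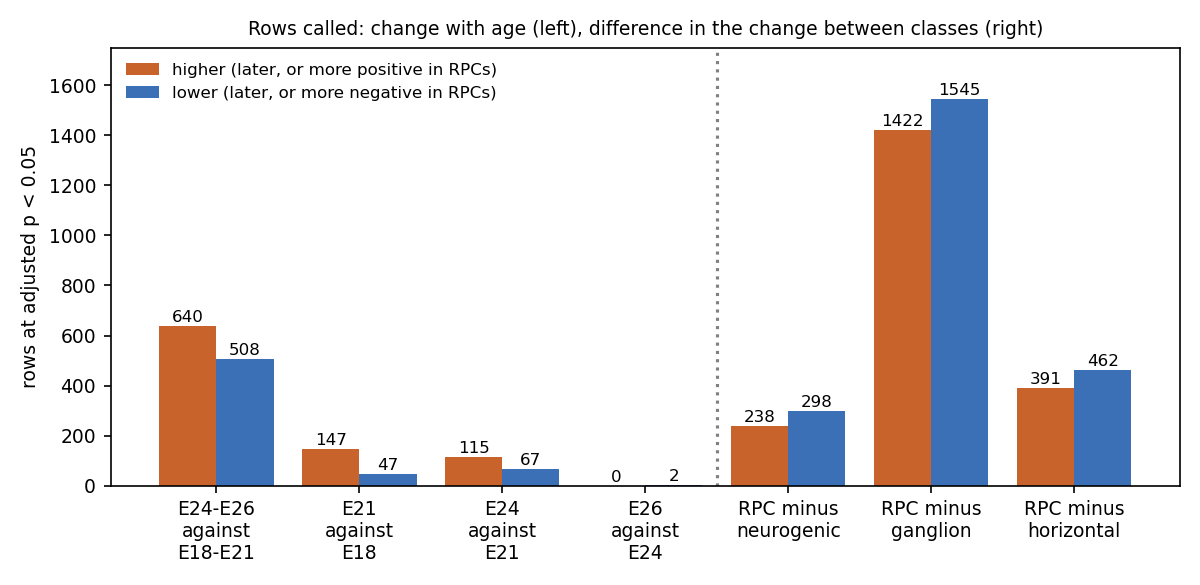
Number of matrix rows called at an adjusted p below 0.05 in early RPCs, for the comparison of windows and the 3 steps between ages (left of the dotted line) and for the difference of the change between early RPCs and another class (right). The comparison of windows called 640 and 508 rows, and the step from E24 to E26 called 0 and 2.

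Whole profiles of the libraries were also set against each other. Over 8647 rows with a mean of at least 10 CPM, the root-mean-square log2 difference was 0.310 to 0.357 between libraries of the same time point (3 pairs), 0.312 to 0.495 between libraries of the same window but different age (6 pairs), and 0.355 to 0.664 across windows (12 pairs). E18 stood apart from all 4 later libraries, and E18 against E26a was the widest pair at 0.664. The closest pair across windows, E21b and E24b at 0.355, lay about as near as E21a and E21b at 0.357. In the edgeR fit the biological coefficient of variation between libraries was 0.180.

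**Figure D5:**
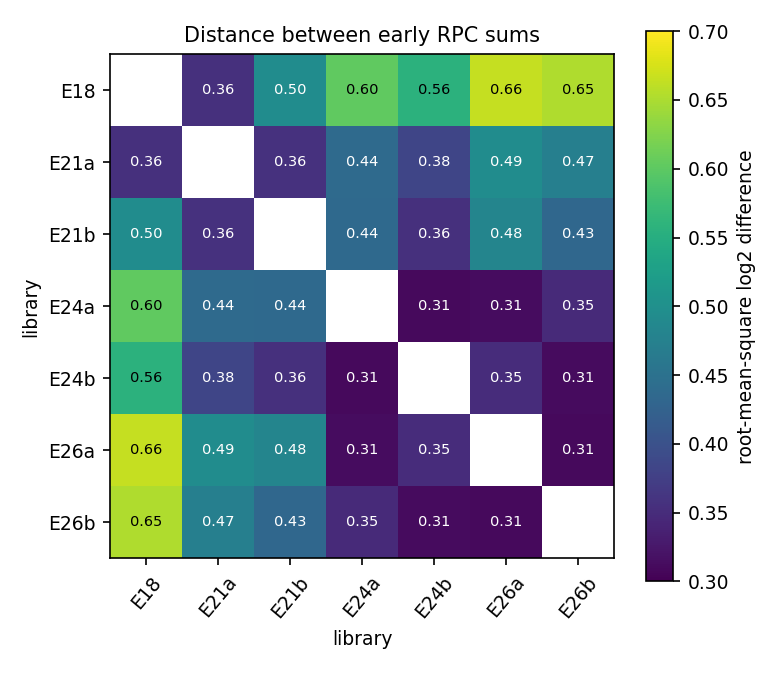
Root-mean-square log2 difference between the early RPC sums of each pair of libraries, over 8647 rows (colour and number in each square, diagonal left blank). Pairs within E24-E26 lie between 0.310 and 0.351, and E18 is the library farthest from the later window, at up to 0.664.

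Whether the change belonged to early RPCs was asked of 3 other classes of the same libraries, through a test of the difference of the 2 changes with the library as a block. Against early neurogenic progenitors (1762 cells), their nearest relatives, 536 of 15004 rows differed (3.57%), 238 with a more positive (1.59%) and 298 with a more negative change (1.99%) in early RPCs. Against horizontal cells (2303 cells) it was 853 of 15427 rows (5.53%), 391 (2.53%) and 462 (2.99%). Against ganglion cells (5700 cells) it was 2967 of 17185 rows (17.3%), 1422 (8.27%) and 1545 (8.99%). E18 held 25 horizontal cells and 118668 UMIs of that class, far fewer than any other library.

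These counts also moved with the data that entered. The count against neurogenic progenitors was 185 without E18, 341 without E21b and likewise without E24a. Its balance turned to 176 more positive and 123 more negative without the cells of very high UMI count, to 191 and 150 without E21b and to 261 and 202 without E26a. The balance against ganglion cells turned to 1323 and 1201 without the cells of very high UMI count, to 1738 and 1508 without E21b and to 948 and 929 without E26b. The count against horizontal cells was 553 without E21a, and that against ganglion cells 1877 without E26b.

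The rows called in early RPCs were then followed in the other classes. Of 640 rising rows, 522 could be tested in neurogenic progenitors, with a median log2 change of 0.75 in early RPCs and 0.58 in neurogenic progenitors. Of 626 rising rows in the test of the difference, 91 differed, 80 of them with the larger rise in early RPCs. In ganglion cells the medians were 0.80 and 0.24 over 578 rows, and 333 of 640 differed, 323 with the larger rise in early RPCs. In horizontal cells they were 0.73 and 0.36 over 484 rows, and 126 of 618 differed, 116 with the larger rise in early RPCs. The rows were chosen for their change in early RPCs, which favours a larger value there, so these medians and counts are a description. Over all rows tested for the difference, 3.57% differed against neurogenic progenitors, 17.3% against ganglion cells and 5.53% against horizontal cells.

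The falling rows had a median change of -0.77 in early RPCs against -0.44 in neurogenic progenitors over 310 rows, -0.91 against -0.30 in ganglion cells over 431 rows, and -0.77 against -0.24 in horizontal cells over 287 rows. The change differed for 69 of 490 rows against neurogenic progenitors (66 with the larger fall in early RPCs), for 236 of 508 against ganglion cells (214) and for 84 of 485 against horizontal cells (79). The falling rows were chosen in the same way, so their medians and counts are a description too.

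Counts of calls in each class on its own depend on its depth. Ganglion cells had 2873 calls of 15782 rows (18.2%), early neurogenic progenitors 449 of 10668 (4.21%) and horizontal cells 557 of 10991 (5.07%). To set classes side by side at equal depth, a choice made after the data were seen, every sum was thinned to that of the shallowest in the pair. At 7181360 UMIs per sum, early RPCs had 995 calls of 14759 rows (6.74%) and ganglion cells 2652 of 15099 (17.6%). At 1211584 UMIs per sum, early RPCs had 424 of 9636 (4.40%) and early neurogenic progenitors 316 of 9513 (3.32%). Ganglion cells thus had more calls than early RPCs of the same libraries also at equal depth, and early RPCs somewhat more than neurogenic progenitors. A difference between these counts was not tested.

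The late-stage RPCs of P4, P8 and P12, which carry another annotation, show where rows stood after birth. P1 was not used, and P17 was left out, with 23054 UMIs in late RPCs. In the shares that follow, P4 and the embryonic libraries were compared on unscaled CPM. In the P4 library, with 2632201 UMIs in late RPCs, 310 of the 640 rising rows (48.4%) lay above all 7 embryonic libraries and 93 (14.5%) below all of them. Of the 508 falling rows, 258 (50.8%) lay below all 7 and 19 (3.74%) above. Over all tested rows 26.3% lay above and 38.5% below. P4 is a single library and differs from the others in annotation as well as in age, which cannot be told apart.

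Of the named rows, row 17658 stood higher in late RPCs than in any embryonic library, at 106 CPM in P4, 164 and 159 CPM in P8a and P8b, and 187 and 253 CPM in P12a and P12b. Row 3347 stood at 93.1 CPM in P4, 47.0 and 94.0 CPM in P8a and P8b, and 45.5 and 55.1 CPM in P12a and P12b. In early RPCs of E26a and E26b it stood at 97.8 and 92.1 CPM after scaling, while levels in late RPCs are unscaled. Row 9607 was at 3.04 CPM in P4 and row 24354 at 11.0 CPM, both below the early RPCs of every embryonic library, where the level that 3 UMIs would give is 1.14 CPM. In P8a, P8b, P12a and P12b, row 9607 was at 2.19, 14.5, 10.1 and 0 CPM, on at most 2 UMIs each, so its level there was not measurable at this depth. Row 24354 was at 8.74, 14.5, 15.2 and 8.71 CPM in the same libraries, on 2 to 8 UMIs each.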

How the data were processed

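UMI counts per matrix row and cell were deposited by the authors as whole, unnormalized numbers, with a table of each cell's time point and cell type. Per the methods, the reads were processed with CellRanger 3.1.0 on the HiC_Itri_2 assembly, and the cells were annotated by cluster in Seurat 4.0.4. Filters on cells, and whether doublets were removed, were not given in the sources used here. Embedding coordinates in the cell table were not used.

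Libraries were told apart by the suffix of the cell name, and all deposited early RPCs of the 7 embryonic libraries were kept. No doublet caller was run, and fits without cells above 2 times the median UMI count of their library and type stand as an alternative. Counts were summed per library and class, since cells are not replicates. Sums were tested in edgeR 4.0.16 (R 4.3.3; filterByExpr, TMM, glmQLFit and glmQLFTest, two-sided), with Benjamini-Hochberg adjustment over all tested rows and a threshold of 0.05. The change was set against that of another class in libraries with at least 10 cells of both. DESeq2 1.42.0 was an alternative. Shares, UMIs and detected rows per library were compared with exact permutation tests in scipy 1.17.1. Wilson intervals (95%) and the limit that 3 UMIs give cover counting error only. The window test, the test against early neurogenic progenitors and the E21 to E24 step were also run on simulated counts with known changes. Those counts were drawn from the model of each fit, so they cannot show where the data depart from it.

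Rows were named by a rule. They had to be called, to reach a mean of 50 CPM in the higher window, not to overlap between windows, and to be at least 1.5 times as abundant in early RPCs as in other cells, and the 2 largest changes in each direction were taken. The list of gene names is not paired with the matrix rows, so no gene names, marker lists or sequences are given. The cells, the comparison and the rules were chosen with earlier results of these data known.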

Additional observations from a re-analysis of the deposited data

Results flagged for a closer look

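In row 9607, E24b stood apart from the other libraries of E24-E26 at 21.8 CPM in early RPCs, by Dixon's test at the 95% level. Of 7 groups tested this was the only flag, and chance flags about 1 in 20 groups.

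The change from E18-E21 to E24-E26 differed between early RPCs and other classes, by edgeR's test of that difference, for 536 rows against early neurogenic progenitors, 2967 against ganglion cells and 853 against horizontal cells. Of 12 such tests on the 4 named rows, 10 passed, but these rows were chosen for a large change and a high level in early RPCs, which favours a difference. In row 17658 the change in early RPCs exceeded that in horizontal cells by 3.57 on the log2 scale. In row 3347 it was more positive by 1.70 than in early neurogenic progenitors, by 3.26 than in ganglion cells and by 2.51 than in horizontal cells. In row 9607 the differences were -2.01, -0.67 and -2.86 against the same 3 classes. The last of these rested on 0 to 5 UMIs per library in horizontal cells, where the row's own change could not be tested. In row 24354 the differences were -1.36, -1.99 and -3.81. The change in early RPCs was the more negative in both rows.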

How the results depend on the processing

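No named row or library measure changed direction in the alternatives run. Of the named rows, row 3347 lost its call without E24a, E26a or E26b, and the other 3 kept theirs. The 1148 calls between windows became 2012 with no filter on low counts (981 higher, 1031 lower) and 685 at a mean of at least 10 CPM. They became 719 without cells of very high UMI count, 2116 from time point means and 544 at a change of at least 2-fold. A slope per embryonic day, fitted in place of the windows, was called for 2129 rows, which is not the window comparison adjusted for day. Chosen after the data were seen, rows at least as abundant in early RPCs as in other cells gave 640 calls (313 higher, 327 lower). Calls between windows ranged from 322 to 1995 with 1 library left out. DESeq2 called 1624. The 536 rows that differed from early neurogenic progenitors became 806 with no filter, 205 with sums thinned to the smallest and 299 without high-UMI cells (176 more positive, 123 more negative, against 238 and 298), and 185 to 640 with 1 library left out. Against ganglion cells the range was 1877 to 3246, with the balance of 1422 and 1545 turned by RLE scaling (1541 and 1452) and thinning (1437 and 1193), and against horizontal cells 553 to 1060, with 65 after thinning, when few rows could be tested. From E18 to E21 the 194 calls became 835 with no filter and 97 after thinning (119 to 567 with 1 library left out), from E21 to E24 the 182 became 832 with no filter and 89 at 10 CPM (46 to 223), and from E24 to E26 the 2 became 233 with no filter, 0 at 10 CPM and 6 without high-UMI cells (1 to 13). The cause of the other shifts was not tested. The difference in the share of early RPCs ranged from -26.2 to -11.7 percentage points with 1 library left out, that in UMIs per early RPC from -3912 to -1604, and that in detected rows from -77.5 to -29.8. With 3 libraries in 1 window, exact tests on single values could not pass 0.05. No paired analysis was possible because the suffixes of the cell names do not carry the labels' replicate numbers.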
